A study of Mus musculus with 6 samples.

Results

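Scar-associated and disease-associated macrophage genes are 10 genes that macrophages and microglia raise around lesions and plaques: Trem2, Spp1, Gpnmb, Fabp5, Cd9, Cd63, Apoe, Lpl, Cst7 and Itgax. They are 10 of 32285 features measured by single-nucleus RNA sequencing of photothrombotic (PT) cortical lesions in mice. Trem2, Cd9, Spp1, Gpnmb, Fabp5 and Cd63 also make up a scar-associated macrophage score that the study used on other nuclei and tissues. The 10 genes were chosen by earlier sight of their levels in these libraries, where Spp1 and Lpl had moved in opposite directions, so every level and ratio below is a description, with no test.

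The 6 libraries came from lesions at 7 and 21 days post-injury (dpi). The mice were adult. The study's methods say that only lesions were dissected, while its results also name residual brain parenchyma. Ctrl mice were wild type (WT), with no treatment named in the labels. Tgfbr2-cKO mice carried Col1a2(creER) and Tgfbr2(flox), a tamoxifen-inducible Cre under a collagen promoter that removes the type II TGFβ receptor from fibroblasts, so the myeloid nuclei described here were not the targeted cells. ADWA11 mice were WT and received an antibody that blocks αvβ8, an integrin that activates latent TGFβ. It was given at 0 and 7 dpi per the labels, while the study's methods describe weekly doses from the day of injury up to collection. The study's methods name tamoxifen-induced mice among the controls of its conditional knockouts in general, and do not say whether the WT mice of these 6 libraries received it. Every group was 1 library made from 1 male and 1 female adult mouse pooled, all with the same PT injury, and uninjured tissue was not analysed here. No sample replicates a group, so 95% intervals are exact and cover counting error only. Nuclei called female or male by Xist and Y-linked genes stand for the 2 mice of a library. Their numbers were unequal, with 6325 female and 2329 male nuclei in Tgfbr2-cKO at 7 dpi. Another 1348 to 2919 nuclei per library had no call. These count only in the whole-library values, which therefore need not lie between the values of the mice.

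In brain disease and injury, microglia and infiltrating macrophages that take up debris and lipid change their gene programme. TREM2 is a surface receptor for lipids and lipoproteins that signals through the adaptor TYROBP, and in microglia it is needed for the full disease-associated programme to which the other genes belong. Osteopontin (Spp1) is a secreted matrix protein linked to fibrosis, GPNMB is a membrane glycoprotein of late endosomes and lysosomes, and CD9 and CD63 are tetraspanins of the plasma membrane and endosomes. FABP5 carries fatty acids inside the cell, APOE carries lipid outside it and LPL releases fatty acids from triglycerides. Cystatin F (Cst7) inhibits lysosomal cysteine proteases, and CD11c (Itgax) is an integrin subunit of dendritic cells and activated microglia.

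Promoter windows of 300 bases, from 250 before to 50 after the annotated start, were held by the RefSeq table (GRCm38.p6) for 8 of the 10 genes, all except Fabp5 and Lpl. They were searched on both strands for 3 letter strings: TGAGTCA, which AP-1 factors bind, GAGGAAG, a core bound by PU.1, and CACGTG, an E-box, and no window of these genes held more than 1 match. Spp1 and Apoe have further windows from other annotated starts, which held none. TGAGTCA was found in Gpnmb and Itgax and in 5.20% of all 32851 windows. GAGGAAG was found in Spp1, Cd63 and Trem2 and in 13.6% of all windows, and CACGTG was in none of the 8 genes and in 7.15% of all windows. Gpnmb and Itgax are shown because they were the 2 genes past 2-fold higher in Ctrl microglia at 21 dpi, and Spp1 because it was lower in the same nuclei. A match is a string of letters, and whether a factor is bound there was not measured. Capitals mark the match, which reads TGACTCA on the printed strand of Gpnmb and lies 8 bases after the start there, 56 before the start in Itgax and 113 before it in Spp1. The windows are chr6:49036268-49036567 for Gpnmb, chr7:128129300-128129599 for Itgax and chr5:104434861-104435160 for Spp1, all on the plus strand and printed 5′ to 3′:
Gpnmb: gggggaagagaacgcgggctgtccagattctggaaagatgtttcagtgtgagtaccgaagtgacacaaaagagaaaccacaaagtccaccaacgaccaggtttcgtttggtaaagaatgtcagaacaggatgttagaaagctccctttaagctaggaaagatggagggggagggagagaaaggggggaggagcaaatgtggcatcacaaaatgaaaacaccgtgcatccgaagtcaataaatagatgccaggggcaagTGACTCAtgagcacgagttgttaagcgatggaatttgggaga
Itgax: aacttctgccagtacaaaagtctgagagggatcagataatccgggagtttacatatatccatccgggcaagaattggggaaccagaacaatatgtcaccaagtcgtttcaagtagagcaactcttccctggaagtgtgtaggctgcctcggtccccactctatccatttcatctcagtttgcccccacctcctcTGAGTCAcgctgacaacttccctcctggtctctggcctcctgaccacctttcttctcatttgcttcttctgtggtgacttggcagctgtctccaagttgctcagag
Spp1: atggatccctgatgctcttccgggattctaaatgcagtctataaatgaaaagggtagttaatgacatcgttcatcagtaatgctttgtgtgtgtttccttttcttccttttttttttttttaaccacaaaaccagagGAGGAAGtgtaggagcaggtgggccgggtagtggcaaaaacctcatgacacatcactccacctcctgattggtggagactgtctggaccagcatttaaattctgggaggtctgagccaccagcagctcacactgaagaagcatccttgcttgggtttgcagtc

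The 10 genes are protein-coding, and their positions in GENCODE M21 (GRCm38, mm10) are as follows. Trem2 (ENSMUSG00000023992) lies at chr17:48346401-48354147, Spp1 (ENSMUSG00000029304) at chr5:104435118-104441050 and Gpnmb (ENSMUSG00000029816) at chr6:49036546-49070929. Fabp5 (ENSMUSG00000027533) lies at chr3:10012548-10016607, Cd63 (ENSMUSG00000025351) at chr10:128900989-128912822 and Lpl (ENSMUSG00000015568) at chr8:68880491-68907448. Cst7 (ENSMUSG00000068129) lies at chr2:150570415-150578944 and Itgax (ENSMUSG00000030789) at chr7:128129547-128150657. Cd9 (ENSMUSG00000030342, chr6:125460266-125494791) and Apoe (ENSMUSG00000002985, chr7:19696109-19699188) are on the minus strand, the others on the plus strand. Levels are given as CPM, the UMIs of a gene scaled to the total UMIs of all non-mitochondrial genes summed over the nuclei of a group. CPM values are compared here between groups of nuclei for the same gene, never between genes.

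The libraries held 7205 to 14246 barcodes and 64798965 to 140310354 UMIs, with medians of 4601.5 to 8222.5 UMIs per barcode, and pairs of libraries shared 21 to 61 barcodes. The filter kept 61917 of 67360 barcodes, of which 24517 were myeloid. Tgfbr2, the targeted gene, stood in fibroblasts at 332 CPM in Ctrl, 230 in Tgfbr2-cKO and 259 in ADWA11 at 7 dpi, and at 243, 195 and 208 at 21 dpi, so it was also below Ctrl in ADWA11, which carries no deletion. UMIs were not resolved by exon, so these counts do not show the deleted part.

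The myeloid nuclei were sub-clustered without the 10 genes. Microglia (5869 nuclei) raised all 10 of their markers, among them P2ry12, Sall1 and Tmem119. A Fabp4-type macrophage group (5006 nuclei) raised Fabp4, Cd5l, Slamf8, Nr1h3, Vcam1 and Cd38, a border-type group (1620 nuclei) raised 8 markers with Cd163 and Mrc1, and a lesion macrophage group (615 nuclei) raised Plau, Arg1, Mmp12, Mmp19 and Lgals3. Sub-cluster 2 (4550 nuclei, led by Dach1, Myo1d and Tnfsf8) raised 2 lesion macrophage markers, Thbs1 and Slc7a2, and sub-cluster 3 (4029 nuclei, led by Cfap299, Dlc1 and Cpne8) raised only Cd5l, so neither was named.

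The groups were spread very unevenly over the libraries. Other cells were too, with 5917 neurons in Tgfbr2-cKO and 101 in Ctrl at 7 dpi. Myeloid nuclei held 7.40% of all UMIs in that Tgfbr2-cKO library and 46.9% in that Ctrl library. The amount of brain tissue around the lesion in each library was not measured. Microglia numbered 1598 nuclei in Ctrl, 1663 in Tgfbr2-cKO and 60 in ADWA11 at 7 dpi, and 1143, 1377 and 28 at 21 dpi. The 60 ADWA11 nuclei were low in homeostatic genes, with P2ry12 at 102 CPM against 339 in Ctrl and Siglech at 4.45 against 67.0, so their identity as microglia is doubtful. The 28 at 21 dpi were too few for this check, and values of both are given with that doubt. Sub-cluster 2 numbered 1744, 293 and 766 nuclei in Ctrl, Tgfbr2-cKO and ADWA11 at 7 dpi, and 1042, 524 and 181 at 21 dpi. The 3 named macrophage groups together, called macrophages below, numbered 330, 119 and 1536 nuclei at 7 dpi and 612, 208 and 4436 at 21 dpi. Their make-up differed, since lesion macrophages were 55 of 330 nuclei in Ctrl but 68 of 119 in Tgfbr2-cKO at 7 dpi, and Fabp4-type nuclei were 331 of 612 in Ctrl, 66 of 208 in Tgfbr2-cKO and 3781 of 4436 in ADWA11 at 21 dpi. Values within the groups are therefore given beside several differences in the pooled macrophages, and the part of the make-up in the others was not tested.

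**Figure D1:**
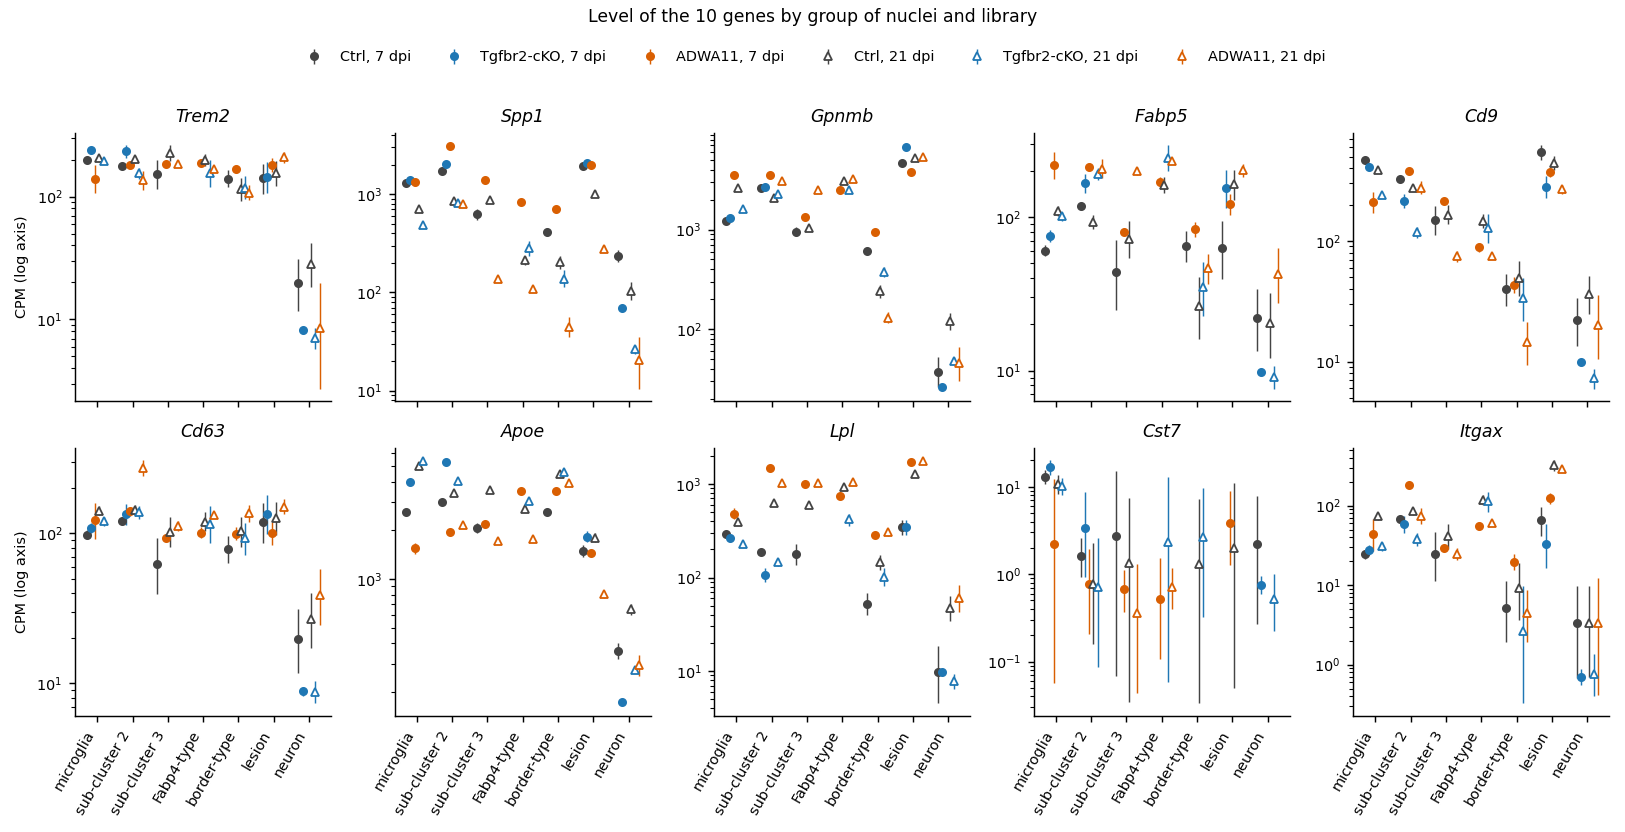
Level of each of the 10 genes, in CPM on a log axis, in microglia, sub-clusters 2 and 3, the named macrophage groups and neurons of each library. Points are libraries with at least 50 nuclei in the group, bars are exact Poisson 95% intervals, and neurons are shown for comparison. Border-type macrophages sit below lesion macrophages for Gpnmb, Cd9, Lpl and Itgax in every library shown.

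In every library most UMIs of Gpnmb, Itgax, Lpl, Trem2, Spp1 and Apoe came from myeloid nuclei. Myeloid nuclei held 76.7% to 92.3% of Gpnmb UMIs, 70.4% to 90.5% of Itgax and 65.6% to 90.7% of Lpl in the 6 libraries, while holding 7.40% to 48.9% of all UMIs. Their share was lower for Cd63, at 29.6% to 62.9%, and in Ctrl at 21 dpi fibroblasts held more of it, at 41.7%. Cst7 was measured by 74 to 252 UMIs per library, of which nuclei named T cells held 64.9% in ADWA11 at 21 dpi. Neurons were read for comparison in the 5 libraries with at least 50 of them. There Trem2 stood at 7.01 to 28.2 CPM, Itgax at 0.703 to 3.38 and Lpl at 7.78 to 60.9. Gpnmb stood at 26.2 to 119, Spp1 at 20.3 to 235 and Apoe at 173 to 650. Whether neurons express any of these genes themselves was not tested. Medians in the neurons were 3152.5 to 20302 UMIs per nucleus. These values are the level found in neurons, and nuclei with fewer UMIs could hold more. Neutrophils in Ctrl at 21 dpi (55 nuclei, median 1157 UMIs) stood at 136 CPM of Trem2, 989 of Gpnmb, 523 of Spp1 and 2661 of Apoe. The part of free RNA in either was not tested. Cd9 is also a gene of the oligodendrocyte lineage, where precursors held 213 to 654 CPM.

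The number of the 10 genes past 2-fold was read against the share of all genes past 2-fold with at least 20 UMIs over the 2 libraries. In microglia of Tgfbr2-cKO against Ctrl at 7 dpi, 0 of 10 were past 2-fold, against 15.0% of all genes, and the median log2 ratio was 0.16, against 0.08 for all genes. At 21 dpi 1 of 10 was lower, against 10.2% of all genes, with a median of −0.39 against 0.02. From 7 to 21 dpi in Ctrl microglia, 2 of 10 were higher and 0 lower, against 14.3% of all genes. In the 60 ADWA11 nuclei at 7 dpi, 2 were higher and 2 lower, against 26.9% of all genes. The 28 ADWA11 nuclei at 21 dpi were too few to count. The count in Tgfbr2-cKO microglia was thus at or below the share among all genes.

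In macrophages 9 of the 10 genes passed the minimum of 20 UMIs, all but Cst7. Of these 9, 2 were higher in Tgfbr2-cKO at 7 dpi (16.8% of all genes past 2-fold) and 4 were lower at 21 dpi (10.8%). Under ADWA11, 2 were higher at 7 dpi (12.2%) and 2 were lower at 21 dpi (12.7%). From 7 to 21 dpi in Ctrl, 2 were higher and 1 lower (12.9%). The medians of the 9 were 0.50 and −0.61 in Tgfbr2-cKO at 7 and 21 dpi, 0.36 and −0.04 under ADWA11, and 0.32 over time in Ctrl, with the medians of all genes between −0.03 and 0.06. The medians near 0 at 21 dpi under ADWA11 covered a Spp1 ratio of −1.57 and a Fabp5 ratio of 0.77.

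In sub-cluster 2, 1 of 10 genes was higher in Tgfbr2-cKO at 7 dpi (14.6% of all genes past 2-fold), and 1 was higher and 3 were lower of 9 at 21 dpi (12.9%). Under ADWA11, 2 were higher and 1 lower of 10 at 7 dpi (11.0%), and 1 was higher of 9 at 21 dpi (14.8%). From 7 to 21 dpi in Ctrl, 1 of 9 was higher (12.5%). The Tgfbr2-cKO and ADWA11 comparisons at a time point share the Ctrl library.

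**Figure D2:**
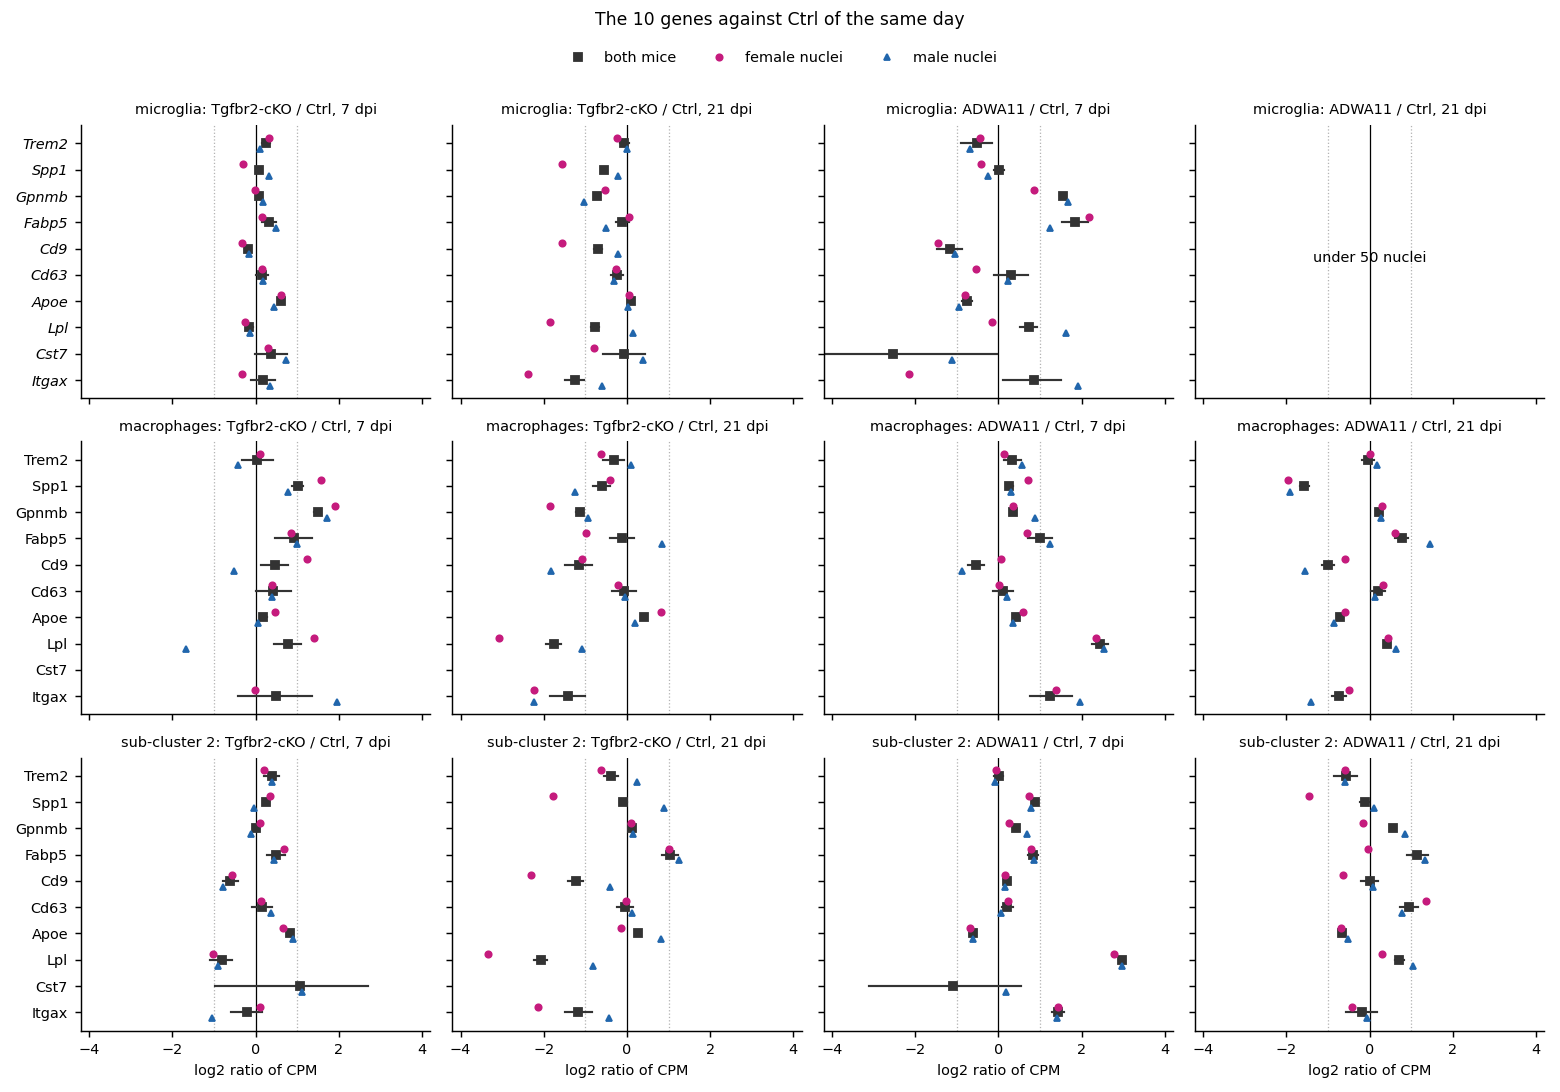
Log2 ratio of CPM of each gene in Tgfbr2-cKO or ADWA11 against Ctrl of the same day, in microglia, macrophages and sub-cluster 2, where squares are whole libraries with exact 95% intervals for counting error and circles and triangles are the female and male nuclei. Dotted lines mark 2-fold, and Lpl lies past them higher under ADWA11 at 7 dpi in macrophages and sub-cluster 2 and lower in Tgfbr2-cKO at 21 dpi in the same groups.

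Trem2, the receptor, stayed within 2-fold between libraries. In microglia it stood at 199 CPM in Ctrl, 237 in Tgfbr2-cKO and 140 in ADWA11 at 7 dpi, and at 206, 196 and 134 at 21 dpi. In macrophages it stood at 142, 147 and 180 CPM at 7 dpi and at 170, 136 and 165 at 21 dpi. In sub-cluster 2 it stood at 179, 233 and 180 CPM at 7 dpi and at 201, 154 and 135 at 21 dpi. No ratio of Trem2 between libraries reached 2-fold in microglia, macrophages or sub-cluster 2, and the ratio to Ctrl farthest from 0 in these groups was −0.62 (95% interval −1.28 to −0.02) in the 28 ADWA11 nuclei at 21 dpi.

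Its signalling partners, a list of 11 genes with the adaptor Tyrobp, the kinase Syk and the phosphatase Inpp5d, were read against the share of all genes past 2-fold. None of those past the minimum (11 in microglia and 10 or 11 in macrophages) was past 2-fold in Tgfbr2-cKO at either time in microglia, macrophages or sub-cluster 2, nor under ADWA11 in macrophages. The share of all genes past 2-fold in these comparisons was 10.2% to 16.8%, at which few of 11 genes would be counted. Card9, an adaptor, was the 1 of 11 past 2-fold lower at 21 than at 7 dpi in Ctrl macrophages (12.9% of all genes past 2-fold), at 10.3 against 26.8 CPM. In the 60 ADWA11 nuclei, 5 of 11 were lower, against 26.9% of all genes past 2-fold, among them Inpp5d at 707 CPM against 1948 in Ctrl and Plcg2, a phospholipase, at 165 against 409. Inpp5d and Plcg2 were also the 2 of 11 past 2-fold lower in sub-cluster 2 under ADWA11 at 21 dpi (14.8% of all genes past 2-fold). They stood at 478 against 1014 CPM and 126 against 269.

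Itgax, the CD11c integrin, was higher at 21 than at 7 dpi in Ctrl microglia and macrophages. In microglia it stood at 24.5 CPM in Ctrl, 27.7 in Tgfbr2-cKO and 44.4 in ADWA11 at 7 dpi, and at 73.0, 30.6 and 69.9 at 21 dpi. From 7 to 21 dpi the Ctrl ratio was 1.57 (1.34 to 1.81), with 1.70 between the female and 1.17 between the male nuclei. Tgfbr2-cKO microglia at 21 dpi lay 1.25 below Ctrl on the log2 scale (ratio −1.25, −1.49 to −1.02). Their 2 mice were at 16.8 and 36.5 CPM and the Ctrl mice at 88.1 and 55.6, so the mice did not overlap.

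In the pooled macrophages Itgax rose from 21.6 CPM at 7 dpi to 125 at 21 dpi in Ctrl, a ratio of 2.54 (2.04 to 3.06), and the same ratio was 1.66 in Fabp4-type (28 nuclei at 7 dpi), 2.31 in lesion and 0.82 in border-type macrophages. The pooled ratio was short of 2-fold in 3 of 11 alternatives, at 0.70 with clustering on log-normalised values, 0.20 at a resolution of 0.5 and 0.69 with sub-clusters 2 and 3 counted as macrophages, and it was 4.06 between male nuclei. Tgfbr2-cKO macrophages stood at 30.5 and 46.8 CPM and ADWA11 macrophages at 51.005 and 75.4 at 7 and 21 dpi. The pooled ADWA11 ratio was 1.24 at 7 dpi, and within groups it was 0.57 in Fabp4-type, 0.93 in lesion and 1.94 in border-type nuclei. The pooled Tgfbr2-cKO ratio of −1.42 at 21 dpi was −0.07 in Fabp4-type, −1.77 in border-type (−5.07 to 0.62) and −1.52 in lesion macrophages, the last with 7 nuclei. Clustering on log-normalised values regrouped the nuclei and gave 0.18 for the pooled Tgfbr2-cKO ratio of Itgax at 21 dpi, and a resolution of 0.5 gave −0.84 for the pooled ADWA11 ratio at 7 dpi, so both directions rest on the clustering. In sub-cluster 2 Itgax stood at 67.3, 58.4 and 183 CPM in Ctrl, Tgfbr2-cKO and ADWA11 at 7 dpi and at 84.5, 37.7 and 74.6 at 21 dpi, and its Tgfbr2-cKO ratio of −1.17 at 21 dpi became 0.88 with that clustering. Its ADWA11 ratio of 1.44 at 7 dpi ranged from 0.42 to 1.53 over 10 alternatives and stayed past 2-fold in 8. Mgl2 dendritic nuclei, a cell type known for CD11c, held 86.9 to 228 CPM of Itgax in the 6 libraries. In Ctrl they went the other way, from 228 CPM at 7 dpi to 145 at 21 dpi (198 and 118 nuclei), and cycling myeloid nuclei stood at 29.5 and 25.9 CPM (345 and 75 nuclei).

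Gpnmb, the lysosomal glycoprotein, differed between the macrophage groups. Lesion macrophages held 4693 CPM in Ctrl, 6802 in Tgfbr2-cKO and 3774 in ADWA11 at 7 dpi, and 5226, 2775 (7 nuclei) and 5373 at 21 dpi. Border-type macrophages held 608, 114 (31 nuclei) and 941 CPM at 7 dpi and 241, 376 and 130 at 21 dpi. The 2 groups did not overlap in any library, and Fabp4-type macrophages lay between them in 6 of 6 libraries, at 1911 to 3254 CPM.

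In microglia Gpnmb stood at 1218 CPM in Ctrl, 1296 in Tgfbr2-cKO and 3560 in ADWA11 at 7 dpi, and at 2630, 1605 and 7103 at 21 dpi. The Ctrl ratio from 7 to 21 dpi was 1.11 (1.07 to 1.14), with 1.05 in the female and 1.204 in the male nuclei, and 0.95 with TMM scaling. In Tgfbr2-cKO the same ratio was 0.31, and the level at 21 dpi was below Ctrl by a log2 ratio of −0.71, short of 2-fold. In pooled macrophages Gpnmb was higher in Tgfbr2-cKO than in Ctrl at 7 dpi, at 4565 against 1628 CPM (ratio 1.49, 1.41 to 1.57), and lower at 21 dpi, at 1234 against 2722 (ratio −1.14). Within the lesion group the 7 dpi ratio was 0.54, within the Fabp4-type group 0.48 and within the border-type group −2.42, and at 21 dpi they were −0.91, −0.32 and 0.64. The shares of the groups moved with both pooled ratios, and clustering on log-normalised values gave −0.11 for Gpnmb at 7 dpi and −0.26 at 21 dpi. In sub-cluster 2 Gpnmb was within 2-fold in all comparisons, between 2091 and 3545 CPM.

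Cd9 and Cd63, the tetraspanins, differed from each other. Cd63 stayed within 98.3 to 142 CPM in microglia, 93.4 to 135 in macrophages and 121 to 275 in sub-cluster 2, with no ratio past 2-fold there. Cd9 in microglia stood at 466, 409 and 209 CPM in Ctrl, Tgfbr2-cKO and ADWA11 at 7 dpi and at 388, 239 and 221 at 21 dpi. The 2 Tgfbr2-cKO mice at 21 dpi were at 136 and 326 CPM and the Ctrl mice at 402 and 377, so both lay below.

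In macrophages Cd9 stood at 155, 213 and 106 CPM at 7 dpi and at 172, 77.5 and 85.9 at 21 dpi. At 21 dpi the ratios to Ctrl were −1.15 in Tgfbr2-cKO and −1.001 under ADWA11. Within the Fabp4-type, border-type and lesion groups the Tgfbr2-cKO ratios were smaller, at −0.21, −0.57 and −0.77 (7 lesion nuclei), and the ADWA11 ratios were −0.98, −1.78 and −0.72. Lesion macrophages held more Cd9 (257 to 543 CPM) than border-type ones (14.5 to 81.1) in every library. In sub-cluster 2 Cd9 was at 276 CPM in Ctrl, 276 in ADWA11 and 118 in Tgfbr2-cKO at 21 dpi, the last a ratio of −1.23 (−1.41 to −1.05) whose mice stood at 50.2 and 241 CPM, against 249 and 321 in Ctrl. Clustering on log-normalised values turned the 21 dpi ratios of Cd9 in Tgfbr2-cKO to 0.45 in both macrophages and sub-cluster 2. The pooled ADWA11 ratio of Cd9 ranged from −1.55 to −0.58 over 11 alternatives and stayed past 2-fold in 5.

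Fabp5, the intracellular fatty acid carrier, was highest under ADWA11 at both times in macrophages, sub-cluster 2, border-type macrophages and the 60 and 28 nuclei of doubtful identity grouped as microglia. In Fabp4-type and lesion macrophages Tgfbr2-cKO was highest instead, with only 20 Fabp4-type nuclei at 7 dpi and 7 lesion nuclei at 21 dpi. In macrophages it stood at 66.5, 125 and 133 CPM in Ctrl, Tgfbr2-cKO and ADWA11 at 7 dpi and at 127, 117 and 216 at 21 dpi. The ADWA11 ratio of 0.9998 at 7 dpi was just short of 2-fold, and it was 0.98 in Fabp4-type, 0.36 in border-type and 0.95 in lesion macrophages. In sub-cluster 2 Fabp5 stood at 118, 166 and 210 CPM at 7 dpi and at 93.2, 191 and 207 at 21 dpi. Its ratios at 21 dpi were 1.04 in Tgfbr2-cKO (1.02 and 1.25 by mouse) and 1.15 under ADWA11, where the mice gave −0.05 and 1.34 and clustering on log-normalised values gave −0.38. In microglia it rose from 60.5 CPM in Ctrl at 7 dpi to 109 at 21 dpi, a ratio of 0.85.

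Apoe, the lipid carrier, stayed within 2-fold of Ctrl in sub-cluster 2. There it stood at 3003 CPM in Ctrl, 5326 in Tgfbr2-cKO and 1960 in ADWA11 at 7 dpi, and at 3386, 4071 and 2150 at 21 dpi. The Tgfbr2-cKO ratio was 0.83 (0.79 to 0.87) at 7 dpi and 0.27 at 21 dpi, where its mice stood at 3418 and 4973 CPM and overlapped the Ctrl mice at 3771 and 2826. The ADWA11 ratios were −0.62 and −0.66. In microglia Apoe stood at 2611, 3961 and 1551 CPM at 7 dpi and at 4998, 5376 and 1824 at 21 dpi. Border-type macrophages, with 2564 to 4592 CPM, held more Apoe than lesion macrophages, with 807 to 3368, in every library.

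Cst7, the protease inhibitor, was sparse, and among myeloid nuclei most of its UMIs lay in microglia in Ctrl and Tgfbr2-cKO but not in ADWA11. In microglia it stood at 12.9 CPM in Ctrl (126 UMIs), 16.7 in Tgfbr2-cKO (100 UMIs) and 2.22 in ADWA11 (1 UMI) at 7 dpi, and at 10.7 (63 UMIs) and 10.2 (81 UMIs) in Ctrl and Tgfbr2-cKO at 21 dpi. In the 28 ADWA11 nuclei at 21 dpi it had 0 UMIs, where 3 UMIs would be 17.5 CPM. Macrophages held 0.584 to 2.42 CPM in the 6 libraries, from 1 to 15 UMIs each. Cst7 of sub-cluster 2 lay at 0 to 3.39 CPM, and its ratios there past 2-fold at 7 dpi, 1.07 in Tgfbr2-cKO (−0.97 to 2.70) and −1.08 under ADWA11 (−3.12 to 0.55), rested on 4 UMIs in the treated libraries and their intervals include 0.

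Spp1, the matrix protein, was lower at 21 than at 7 dpi in microglia, macrophages and sub-cluster 2. In microglia it stood at 1307 CPM in Ctrl, 1386 in Tgfbr2-cKO and 1327 in ADWA11 at 7 dpi, and at 710, 488 and 682 at 21 dpi. In sub-cluster 2 it stood at 1709, 2036 and 3125 CPM at 7 dpi and at 858, 809 and 791 at 21 dpi. In macrophages it stood at 768, 1546 and 921 CPM at 7 dpi and at 349, 228 and 117 at 21 dpi. The 7 dpi value was the higher in each of these 9 pairs. In sub-cluster 2 of Tgfbr2-cKO this held for the female nuclei only. They stood at 2513 CPM at 7 dpi and 255 at 21 dpi, while male nuclei stood at 1578 and 1851. Sub-cluster 3 went the other way in Ctrl, from 626 CPM (65 nuclei) to 872 (167 nuclei). So did Tgfbr2-cKO nuclei of the Mgl2 dendritic group, from 186 CPM (41 nuclei) to 524 (69 nuclei), of the cycling group, from 1861 (179 nuclei) to 6461 (21 nuclei), and of sub-cluster 3, from 0 (2 nuclei) to 1025 (34 nuclei).

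The log2 ratio of Spp1 from 7 to 21 dpi differed between conditions. In microglia it was −0.88 in Ctrl, −1.51 in Tgfbr2-cKO and −0.96 in ADWA11 (60 and 28 nuclei), and in pooled macrophages it was −1.14, −2.76 and −2.97. The pooled Ctrl ratio ranged from −2.06 to −0.52 over 11 alternatives and stayed past 2-fold in 8. Under ADWA11 it was −2.94 (−3.02 to −2.87) in Fabp4-type, −3.98 in border-type and −2.82 in lesion macrophages and −3.32 in sub-cluster 3, while in Ctrl it was −1.66, −1.03, −0.94 and 0.48 in the same groups. In sub-cluster 2 it was −1.98 under ADWA11, −1.33 in Tgfbr2-cKO and −0.99 in Ctrl. The Tgfbr2-cKO value came from the female nuclei, since the male nuclei rose from 1578 to 1851 CPM. Within the macrophages of Tgfbr2-cKO the ratio was −2.33 in Fabp4-type (20 and 66 nuclei), −0.66 in border-type (31 and 135) and −1.14 in lesion macrophages (68 and 7). At 21 dpi the ADWA11 ratio to Ctrl was −1.57 (−1.67 to −1.47) in macrophages, with −1.96 and −1.91 by mouse, and −0.97, −2.18 and −1.86 in its Fabp4-type, border-type and lesion groups. Fibroblast nuclei moved with it, at 458 CPM of Spp1 in Ctrl and 460 in ADWA11 at 7 dpi and at 145 and 56.3 at 21 dpi, and the part of free RNA in these values was not tested. At 7 dpi pooled Tgfbr2-cKO macrophages stood 2-fold above Ctrl in Spp1 (ratio 1.01), while the ratio was 0.10 in the lesion, 1.07 in the Fabp4-type (20 nuclei) and −0.91 in the border-type group (31 nuclei), and the pooled ratio was 0.12 with sub-clustering at a resolution of 0.5.

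Lpl, the lipase, moved the other way with time in Ctrl. There it stood at 128 CPM at 7 dpi and 783 at 21 dpi in macrophages, a ratio of 2.61 (2.41 to 2.82), and at 188 and 621 in sub-cluster 2, a ratio of 1.72 (1.63 to 1.81). The ratio was 2.43 in Fabp4-type, 1.47 in border-type and 1.90 in lesion macrophages and 1.76 in sub-cluster 3. In microglia it was 0.43, from 292 to 392 CPM. Of the 6 groups, 5 were thus past 2-fold higher in Lpl at 21 dpi in Ctrl. Spp1 was lower by any amount in the same comparison in 5 of the 6, and past 2-fold only in Fabp4-type and border-type macrophages. Under ADWA11 the ratio of Lpl over time was −0.53 in sub-cluster 2 and 0.59 in macrophages. In Tgfbr2-cKO it was −0.19 in microglia, 0.47 in sub-cluster 2 and 0.09 in pooled macrophages, but 3.10 (1.85 to 4.74) in Fabp4-type and 2.07 (0.47 to 4.38) in border-type macrophages, from 20 and 31 nuclei at 7 dpi. The 2 Tgfbr2-cKO mice moved in opposite directions in microglia, sub-cluster 2 and pooled macrophages. Female nuclei fell from 272 to 118, from 112 to 71.8 and from 375 to 103 CPM. Male nuclei rose from 231 to 341, from 91.5 to 305 and from 34.8 to 308 CPM.

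ADWA11 macrophages already held high Lpl at 7 dpi. Macrophages stood at 696 CPM, a ratio to Ctrl of 2.44 (2.25 to 2.64), and the female and male nuclei gave 2.35 and 2.53. Within the groups the ratio was 2.12 in Fabp4-type, 2.42 in border-type and 2.32 in lesion macrophages, 2.96 in sub-cluster 2 (188 to 1469 CPM) and 2.5 in sub-cluster 3. At 21 dpi ADWA11 lay closer to Ctrl, with ratios of 0.42 in macrophages and 0.71 in sub-cluster 2. Fibroblast nuclei held 35.9 CPM of Lpl in Ctrl and 95.9 in ADWA11 at 7 dpi, where macrophages held 128 and 696. The part of free RNA in these values was not tested.

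In Tgfbr2-cKO at 21 dpi Lpl was low. It stood at 232 CPM in macrophages against 783 in Ctrl, a ratio of −1.75 (−1.94 to −1.58), and at 148 against 621 in sub-cluster 2, a ratio of −2.07. The mice of the Tgfbr2-cKO library differed, at 103 and 308 CPM in macrophages, 71.8 and 305 in sub-cluster 2 and 118 and 341 in microglia, the lower value being that of the female nuclei each time. Both mice lay below both Ctrl mice in macrophages (872 and 650 CPM) and sub-cluster 2 (722 and 541). In microglia the Ctrl mice stood at 424 and 308 CPM and overlapped the Tgfbr2-cKO mice. Within groups the ratio was −1.15 in Fabp4-type, −0.51 in border-type and −1.32 in lesion macrophages (7 nuclei), and 0.01 in sub-cluster 3 (34 nuclei). Clustering on log-normalised values left ratios of −0.59 in macrophages and −0.11 in sub-cluster 2. At 7 dpi the 2 Tgfbr2-cKO mice stood at 375 and 34.8 CPM in macrophages, on either side of the Ctrl mice at 143 and 112.

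**Figure D3:**
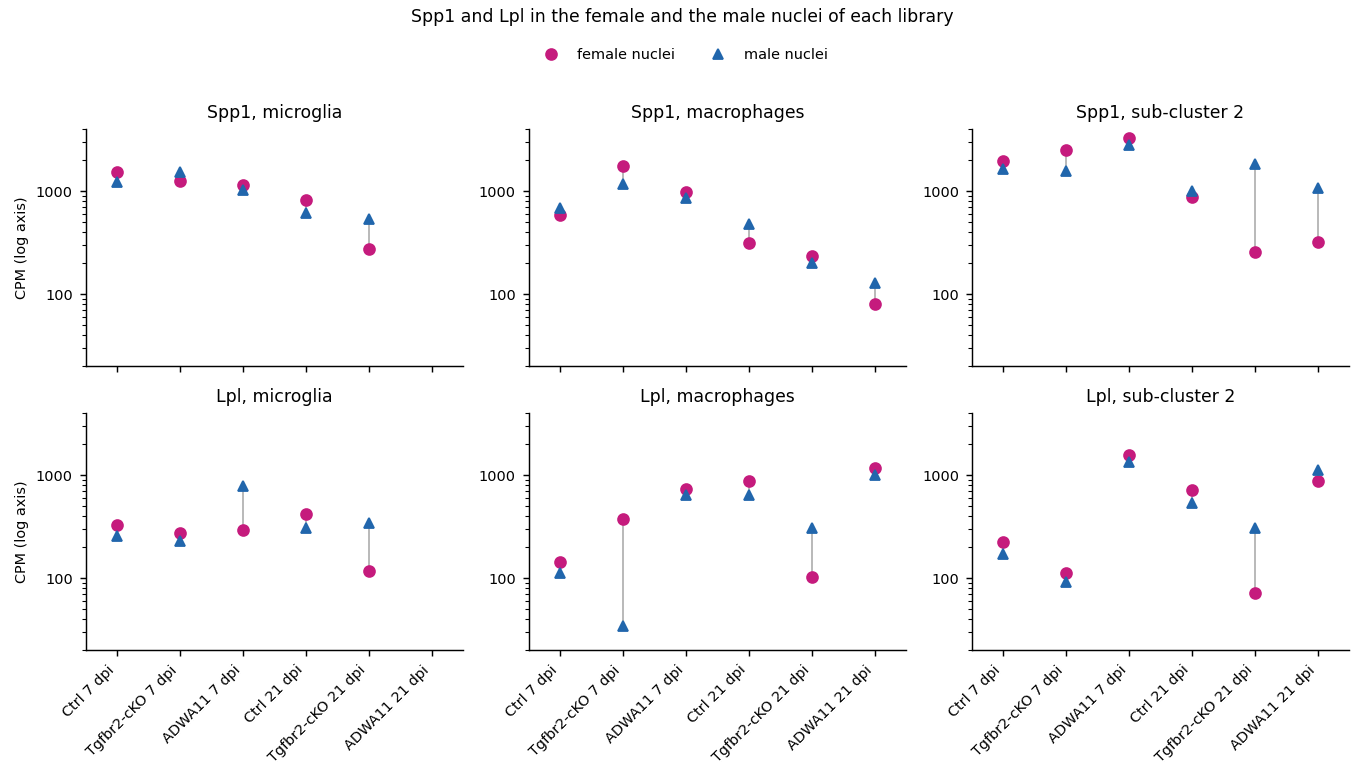
Spp1 and Lpl levels, in CPM on log axes, for the nuclei called female and male in each library, in microglia, macrophages and sub-cluster 2. Each point stands for 1 mouse, a line joins the mice of a library, and the ADWA11 mice at 21 dpi sit at 80.4 and 129 CPM of Spp1 in macrophages with 1184 and 1003 CPM of Lpl.

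In microglia the 2 mice of a library differed most often in Tgfbr2-cKO at 21 dpi. In Tgfbr2-cKO at 21 dpi 4 of 10 genes in microglia and 4 of 9 in sub-cluster 2 were at least 2-fold apart between the mice, and the Spp1 of sub-cluster 2 stood at 255 CPM in the female and 1851 in the male nuclei. Ctrl libraries had 0 of 10 genes that far apart in microglia and 0 of 9 in sub-cluster 2 at both times. In macrophages the number was 2 in Tgfbr2-cKO at each time, 1 in Ctrl at 21 dpi (Itgax) and 0 in the other 3 libraries. ADWA11 at 21 dpi had 4 of 9 in sub-cluster 2, where Spp1 stood at 319 and 1074 CPM. Sex and mouse cannot be told apart in these pairs. The share of all genes that far apart between the mice was not counted, so these numbers have no background beside them. Some sets were small, with 51 female and 86 male nuclei in sub-cluster 2 of ADWA11 at 21 dpi. Macrophages of Tgfbr2-cKO at 7 dpi had 65 and 31.

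Co-detection was read after thinning each nucleus to 2000 UMIs, since deeper nuclei show more genes, and nuclei with fewer were left out. This kept 1497 of 1598 microglia in Ctrl and 1321 of 1663 in Tgfbr2-cKO at 7 dpi. It kept 752 of 1042 nuclei of sub-cluster 2 in Ctrl at 21 dpi. Of lesion macrophages, 60.7% to 90.9% held at least 1 UMI of 4 or more of the 10 genes in the 5 libraries with 50 or more such nuclei. The share was 36.5% to 79.2% in sub-cluster 2, 44.4% to 62.2% in Fabp4-type and 6.94% to 37.2% in border-type macrophages. Outside the myeloid nuclei, neurons gave 0.444% to 3.19%, fibroblasts 5.96% to 8.48%, oligodendrocytes 2.84% to 12.96% and nuclei named T cells 7.00% to 22.9%, in the libraries with at least 50 of them. Border-type macrophages in Ctrl at 21 dpi, at 6.94% (3.64% to 11.8%), lay within the fibroblast range. The other border-type values, 10.2% to 37.2%, were above that range, and of these 37.2% in ADWA11 at 7 dpi was above the highest value of the nuclei named T cells.

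In microglia the share with 4 or more genes was 49.0% (46.4% to 51.5%) in Ctrl and 44.1% (41.4% to 46.8%) in Tgfbr2-cKO at 7 dpi, and 58.4% (55.3% to 61.3%) and 34.8% (32.2% to 37.5%) at 21 dpi. By mouse, the 21 dpi shares were 58.4% in female and 57.1% in male nuclei of Ctrl and 30.7% and 38.1% in Tgfbr2-cKO, and the intervals cover counting error only, with 1 library a group. In sub-cluster 2 it was 56.0% in Ctrl, 51.3% in Tgfbr2-cKO and 79.2% in ADWA11 at 7 dpi, and 56.65%, 36.5% and 54.0% at 21 dpi.

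**Figure D4:**
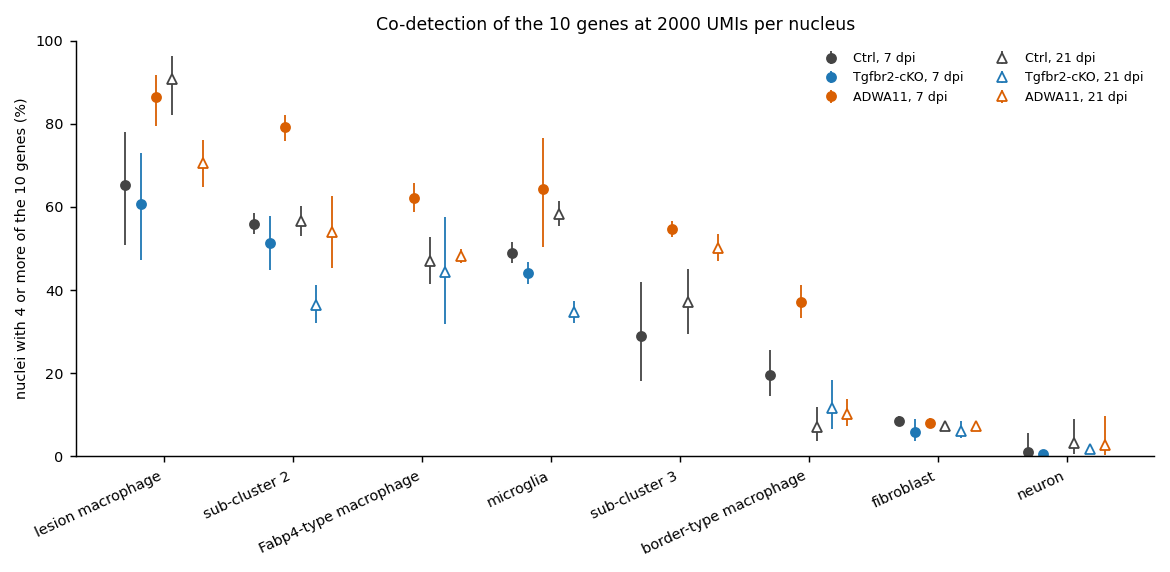
Share of nuclei with at least 4 of the 10 genes after thinning to 2000 UMIs, in percent, by cell group and library, with exact binomial 95% intervals. Lesion macrophages sit highest, at 60.7% to 90.9%, and neurons lowest, at 0.444% to 3.19%, and groups with under 50 nuclei are not drawn.

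Spp1 and Lpl were found in the same nuclei about as often as their separate shares would give, or up to 1.64 times as often. Both were detected in 14.45% of sub-cluster 2 nuclei in Ctrl at 7 dpi, where the product of the 2 single shares was 12.15%, and in 64.2% under ADWA11, where the product was 62.1%. The ratio of the joint share to the product had a median of 1.12 and a range of 1.01 to 1.64 over 16 combinations of group and library in which the product gave at least 10 nuclei. The highest, in Tgfbr2-cKO microglia at 21 dpi, was 1.54 in the female and 1.49 in the male nuclei. At this depth Spp1 and Lpl were therefore not found in separate nuclei of these groups. Among the other pairs, Cd9 with Itgax had a median ratio of 1.39 over 10 combinations and Lpl with Itgax 1.28 over 13, while Gpnmb with Apoe had 0.995 over 18.

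The other disease-associated microglia genes, a list of 23 of which 22 were in the files, moved in either direction. From 7 to 21 dpi in Ctrl, 7 of 22 were past 2-fold higher and 2 lower in microglia (14.3% of all genes past 2-fold), and 6 of 20 higher and 2 lower in macrophages (12.9%). Mamdc2 rose from 64.4 to 275 CPM in microglia. In pooled macrophages at 21 dpi it stood at 941 CPM in Ctrl and 117 in Tgfbr2-cKO. It is a leading gene of the lesion group, which was 80 of 612 nuclei in Ctrl and 7 of 208 in Tgfbr2-cKO. The part of this make-up in the difference was not tested. The cytokine genes Ccl3 and Ccl4 were higher under ADWA11 in sub-cluster 2 at 21 dpi, at 264 against 10.2 CPM and 525 against 29.4, and the chemokine Ccl6 was higher there at 7 dpi, at 78.3 against 5.65. Dkk2, a modulator of Wnt signalling, was lower under ADWA11 at 21 dpi, at 4.03 against 102 CPM in sub-cluster 2 and 2.39 against 48.3 in macrophages.

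Of 13 candidate regulators, 3 were past 2-fold higher and 0 lower from 7 to 21 dpi in Ctrl microglia (14.3% of all genes past 2-fold) and in Ctrl macrophages (12.9%). Pparg, a nuclear receptor that fatty acids activate, stood at 451 CPM against 168 in Ctrl in sub-cluster 2 under ADWA11 at 7 dpi (ratio 1.43, 1.34 to 1.52). In Tgfbr2-cKO macrophages at 7 dpi it stood at 28.7 against 224 CPM (ratio −2.97, from 16 UMIs). There 2 of 12 regulators were past 2-fold higher and 2 lower (16.8% of all genes). Border-type nuclei were 247 of 330 macrophages in Ctrl and 31 of 119 in Tgfbr2-cKO, and the part of this make-up was not tested. Nr1h3, the liver X receptor α, rose from 7.59 to 40.3 CPM over time in Ctrl macrophages and stood at 38.8 against 13.2 in sub-cluster 2 under ADWA11 at 7 dpi. Bhlhe40, a transcriptional repressor, rose from 11.1 to 38.7 CPM in Ctrl microglia and from 8.17 to 29.3 in Ctrl macrophages. Nr1h3 was also a marker used to name the Fabp4-type group, whose share rose with time.

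Homeostatic microglia genes, a list of 12, were counted in the same way. In Ctrl microglia 0 were higher and 1 was lower at 21 than at 7 dpi (14.3% of all genes past 2-fold), and in Tgfbr2-cKO 3 were higher at 7 dpi (15.0%) and 1 at 21 dpi (10.2%). In the 60 ADWA11 nuclei 10 of 12 were lower (26.9%), with Cx3cr1 at 93.3 against 417 CPM. In sub-cluster 2 under ADWA11, 8 of 12 were lower at 7 dpi (11.0%) and 6 of 11 at 21 dpi (14.8%), where Cx3cr1 stood at 25.2 against 154 CPM.

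Likeness was taken as Pearson's r of log2(CPM + 1) across 32 combinations of myeloid group and library with at least 50 nuclei, among 9362 genes, as a description in which points share libraries and depth. The genes most like Gpnmb were Speg (0.93), Ttyh2 (0.92) and Fblim1 (0.90), and those most like Trem2 were Mitf (0.89), Dtnbp1 (0.88) and Frrs1 (0.87). Mitf encodes a transcription factor of lysosomal genes. Cd9 was most like Chst11 (0.89), Ell2 (0.89) and Xylt1 (0.87), Fabp5 most like Mgll (0.86), Atp6v1b2 (0.82) and Fbxo32 (0.82), and Apoe most like C1qa (0.84), Csf1r (0.83) and Ntpcr (0.83). Spp1 was most like Sdk1 (0.83), Nbea (0.81) and 2510009E07Rik (0.80), and Lpl most like Gm13963 (0.83), Emp1 (0.81) and Gas2l3 (0.81). Itgax was most like Ptprs (0.83), Csf2ra (0.82) and Bhlhe40 (0.81), Cd63 most like Atp6v1f (0.81), Gm15832 (0.81) and Gm32250 (0.80), and Cst7 most like Arhgef40 (0.78), Extl3 (0.78) and Herc2 (0.78). Among the members themselves Gpnmb and Fabp5 had an r of 0.76, Gpnmb and Lpl 0.71, and Apoe and Itgax −0.42.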

How the data were processed

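The authors sorted DAPI+ nuclei from lesions, made 10x 3′ libraries and deposited UMI counts per gene and nucleus for each library. Per the file headers these came from Cell Ranger 7.2.0, while the submitters' processing notes name 7.1.0 and the mm10 genome. Barcodes within the middle of each library's UMI and gene distribution (2.5% cut at each end, and the top 2.5% of mitochondrial share) were kept, and clustered with SCTransform (Seurat 5.3.0, sctransform 0.4.2, R 4.3.3), 30 components and resolutions of 0.5 for all nuclei and 0.25 for myeloid nuclei, leaving 69 listed genes out of the latter. A cluster was named from at least 3 raised markers. Of the kept barcodes, 5560 were called doublets and stayed in, with an alternative without them. Counts were summed per group and library as CPM, and ratios carry exact conditional binomial intervals. Co-detection thinned each nucleus to 2000 UMIs and left out nuclei with fewer. Each library was 1 sample of a group, so no test was run. The genes and lists were chosen with earlier results of these data known, and some naming rules were set after clusters were seen. From each list, genes past 2-fold were named, at most 4 per list and cell group by size of ratio, besides markers given to check a group. For likeness the 3 genes with the highest r were named. Scripts were tested on simulated data. Alternatives were TMM scaling (edgeR 4.0.16), other clusterings, filters and minimums. Positions came from GENCODE M21, with 32158 of 32285 features matched. The listed gene Clec7a was not analysed here.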

Additional observations from a re-analysis of the deposited data

Results flagged for a closer look

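The 5 results here had a whole-library ratio past 2-fold at 7 or 21 dpi. In each, both mice lay on the same side of Ctrl at 7 dpi and on the opposite side at 21 dpi. Genes that changed sides within 2-fold, among them Apoe in ADWA11 macrophages, are left out. The share of all genes that changed sides was not counted, and the difference between the time points was not tested. In macrophages of Tgfbr2-cKO, the log2 ratio of Spp1 was 1.01 at 7 dpi (1.57 and 0.77 by mouse) and −0.61 at 21 dpi (−0.40 and −1.26), a difference of −1.62. That of Gpnmb was 1.49 and −1.14, a difference of −2.63. Under ADWA11 the macrophage ratio of Spp1 was 0.26 and −1.57, a difference of −1.83, and that of Itgax was 1.24 and −0.73, a difference of −1.97. In sub-cluster 2 under ADWA11 the ratio of Itgax was 1.44 and −0.18, a difference of −1.62. The shares of lesion, Fabp4-type and border-type nuclei among the pooled macrophages differed between these libraries, and their part in the pooled values was not tested. With other clusterings the 7 dpi macrophage ratios went down to 0.12 for Spp1 and −0.11 for Gpnmb in Tgfbr2-cKO. That of Itgax under ADWA11 went down to −0.84.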

How the results depend on the processing

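The labels give no replicate numbers that pair mice across libraries, and ratios between nuclei of the same sex were used as alternatives instead of a paired test. Of the 30 log2 ratios past 2-fold, 22 kept their direction under every alternative that gave a value, and over all 305 such values 294 kept it and 239 stayed past 2-fold. Another 8, all of Cst7, had 0 UMIs on 1 side and gave no value. Lpl under ADWA11 at 7 dpi stayed past 2-fold throughout, at 1.38 to 2.68 in macrophages and 2.49 to 3.06 in sub-cluster 2, as did Spp1 under ADWA11 at 21 dpi in macrophages, at −2.25 to −1.33. Clustering on log-normalised values, which put 3029 of the 4550 nuclei of sub-cluster 2 in a border-type cluster, reversed Gpnmb (−0.11, macrophages of Tgfbr2-cKO at 7 dpi), Cd9 and Itgax (0.45 and 0.18, macrophages of Tgfbr2-cKO at 21 dpi, and 0.45 and 0.88 in sub-cluster 2) and Fabp5 (−0.38, sub-cluster 2 of ADWA11 at 21 dpi, where female nuclei gave −0.048). Itgax in ADWA11 macrophages at 7 dpi was −0.84 at resolution 0.5 and −0.045 with sub-clusters 2 and 3 counted as macrophages, an alternative chosen after seeing the data. Cst7 under ADWA11 at 7 dpi was 0.18 in male nuclei of sub-cluster 2 and 0.10 there at resolution 0.5.

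Counts of the 10 genes past 2-fold changed as follows, and the cause was not tested. In macrophages of Tgfbr2-cKO at 7 dpi the 2 became 4 in female nuclei, 1 with log-normalised clustering, the pooled filter, resolution 0.5, TMM or without the top 5 nuclei, and 0 with sub-clusters 2 and 3 included. At 21 dpi the 4 became 1 with log-normalised clustering or resolution 0.5, and in microglia the 1 became 4 in female nuclei. In macrophages of ADWA11 at 7 dpi the 2 became 1 with log-normalised clustering, the pooled filter or the list genes kept. At 21 dpi the 2 became 4 in male nuclei and 1 in female nuclei, without doublets, with the list genes kept, TMM, the mean per nucleus or without the top 5 nuclei. Over time in Ctrl macrophages the 3 became 5 without the top 5 nuclei. In sub-cluster 2 of Tgfbr2-cKO at 7 dpi the 1 became 0 without doublets, with the list genes kept, resolution 0.5, the mean per nucleus or a minimum of 100 UMIs, and at 21 dpi the 4 became 2 with the list genes kept and 1 in male nuclei or with log-normalised clustering. Under ADWA11 at 7 dpi the 3 became 1 with log-normalised clustering or resolution 0.5, and at 21 dpi the 1 became 2 in female or in male nuclei, 4 with log-normalised clustering or resolution 0.5, and 0 with the pooled filter, the mean per nucleus or without the top 5 nuclei. Over time in Ctrl the 1 became 3 with the pooled filter and 2 in female nuclei, with log-normalised clustering, the list genes kept, resolution 0.5, TMM, no minimum or without the top 5 nuclei. The share of microglia with 4 or more genes depends on depth: in Ctrl at 7 dpi it was 21.2% at 1000 UMIs, 76.9% at 4000 and 82.0% unthinned, and at 21 dpi 29.4%, 80.5% and 81.0%.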
